A study of Mus musculus with 2 samples.

Results

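The stathmins and the collapsin response mediator proteins (CRMPs) are 9 genes of the deposited footprint table, which holds 45578 genes: Stmn1, Stmn2, Stmn3 and Stmn4, and Crmp1, Dpysl2, Dpysl3, Dpysl4 and Dpysl5. They were taken by name, and for each the isoform with the most counts over both libraries stood for the gene. All 9 were matched by symbol, and all 9 passed the filter of a mean of at least 10 counts. The libraries come from active ribosome profiling with RiboLace, in which a puromycin analogue on beads pulls down translating ribosomes, of whole brain at postnatal day 5. The only group is control mice, Smn+/-; SMN2tg/0, 2 biological replicates. These mice are of the Taiwanese spinal muscular atrophy strain on an FVB background, so both libraries carry the single functional copy of mouse Smn and the human SMN2 transgene, and no wild-type library or other condition was analysed here. The labels do not say whether a library is 1 brain or a pool, and give no sex.

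Stathmins bind free tubulin dimers and favour the shrinkage of microtubules, and phosphorylation by several kinases releases the tubulin. Stmn1 is a cytosolic protein, whereas Stmn2 (SCG10), Stmn3 (SCLIP) and Stmn4 (RB3) carry an N-terminal extension that anchors them to membranes of the Golgi and the growth cone. CRMPs are cytosolic relatives of the pyrimidine-degrading enzyme dihydropyrimidinase without its enzyme activity. They assemble into mixed tetramers and act downstream of the guidance cue semaphorin 3A. Dpysl2 (CRMP2), the founding member, binds tubulin and promotes axon growth, and is switched off by Cdk5 and Gsk3 phosphorylation. Both families are known as genes of young, process-bearing neurons.

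Replicate 1 held 343552 gene-level counts and replicate 2 held 120282, a 2.86-fold difference in depth, so values of replicate 2 carry the larger counting error. Of the tissue markers, 6 of 6 neuronal genes had counts in both libraries and together held 0.549% of counts in replicate 1 and 0.537% in replicate 2. All 4 astrocyte and radial glia genes (0.211% and 0.189%), 4 of 4 oligodendrocyte lineage genes (0.045% and 0.042%), 3 of 3 microglial genes (0.015% and 0.011%) and 2 of 2 endothelial genes (0.0096% and 0.012%) were also detected, and 3 globin genes held 0.307% and 0.290%. Of 4 liver and muscle genes, Alb, Apoa1 and Ckm had 0 counts in both libraries, while Acta1, which resembles the other actins, had 70 and 22. The part of cell composition in the levels below was not tested.

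The 4 stathmins held 1273 counts in replicate 1, or 0.371% of all gene counts (Wilson 95% interval, 0.351 to 0.391), and 464 counts or 0.386% in the second library (0.352 to 0.422). The 5 CRMPs held 2044 counts in replicate 1, or 0.595% (0.570 to 0.621), and 706 counts or 0.587% in the second library (0.545 to 0.632). The intervals of both families overlapped between the libraries, and the means were 0.378% ± 0.011 for stathmins and 0.591% ± 0.0057 for CRMPs (SD, n = 2). With coding counts as the total the shares repeated less closely. Stathmins then held 0.455% (0.431 to 0.481) in replicate 1 and 0.528% (0.482 to 0.578) in replicate 2, with intervals apart. CRMPs held 0.731% (0.700 to 0.763) and 0.803% (0.746 to 0.864), with intervals that overlapped. All intervals given describe counting error alone: without molecular identifiers, PCR copies of a fragment look like separate molecules, and 1 fragment can be counted for several transcripts.

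The CRMPs thus held 1.61 times the counts of the stathmins in replicate 1 and 1.52 times in replicate 2. A CRMP coding sequence is longer, however, and more ribosomes fit on it. Levels of different genes were therefore compared as footprint density, the CPM (the count scaled to library size) per kilobase of coding sequence on the coding transcript with the highest count. On this scale the order of the families turned over: summed stathmin density was 6718 in replicate 1 and 8020 in replicate 2, against 3113 and 3553 for the CRMPs, a ratio of 2.21 ± 0.070 (SD, n = 2). The counting rule is not given, and the deposited count is per transcript, so the density may take in fragments of untranslated regions. A density is the product of messenger abundance, of ribosomes per messenger and, in bulk brain, of the share of cells that express the gene; these cannot be told apart here.

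Among the stathmins, Stmn2 had a density of 2198 CPM per kb in replicate 1 (exact Poisson 95% interval 1997 to 2414) and 2679 in replicate 2 (2282 to 3125). It encodes the growth cone protein SCG10, of 179 residues, and its 438 and 162 counts placed it at rank 15 by mean density, out of the 4375 genes with a coding transcript averaging at least 10 counts. Stmn1, the cytosolic founding stathmin of 149 residues, had the same density in replicate 1, 2198 (1978 to 2436), and 2322 in replicate 2 (1920 to 2783), from 365 and 117 counts. Stmn3, with 180 residues, stood at 1847 (1663 to 2045) and 2565 (2179 to 3001), from 370 and 156 counts. These 3 genes could not be ordered among themselves: Stmn1 was above Stmn3 in replicate 1 and below it in replicate 2, and all intervals of neighbours overlapped. They ranked 15, 19 and 21 among coding genes for Stmn2, Stmn1 and Stmn3.

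Stmn4 stood apart from the other stathmins. This gene, which encodes RB3 with 189 residues in the transcript used, had 100 and 29 counts, a density of 475 in replicate 1 (387 to 578) and 454 in replicate 2 (304 to 652), and rank 280. Stmn2 exceeded it 4.62-fold in replicate 1 and 5.90-fold in replicate 2, with intervals that did not overlap in either library. Of the summed stathmin density, Stmn2 made up 33.1% ± 0.483, Stmn1 30.8% ± 2.67, Stmn3 29.7% ± 3.18 and Stmn4 6.37% ± 0.999 (each SD, n = 2).

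Among the CRMPs, Dpysl2 led. Its 772 and 300 counts gave a density of 1217 CPM per kb in replicate 1 (exact Poisson 95% interval 1133 to 1306) and 1558 in replicate 2 (1387 to 1745), rank 47 of 4375, and by CPM without length it was the 11th of 4392 coding genes. Dpysl3 (CRMP4), which is known from differentiating neurons, had 532 and 155 counts and a density of 842 (772 to 916) and 808 (686 to 946). The densities of Dpysl2 and Dpysl3 were apart in both libraries, by 1.45-fold and 1.93-fold. Crmp1, whose transcript used here encodes 686 residues, had 417 and 150 counts and a density of 548 (497 to 604) and 650 (550 to 763). Dpysl5 (CRMP5), the most divergent CRMP, had 270 and 86 counts and a density of 432 (382 to 486) and 453 (362 to 560).

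Dpysl4 (CRMP3) was the lowest member in both libraries. On its coding transcript it had 47 and 16 counts, a density of 74.1 in replicate 1 (54.4 to 98.5) and 83.1 in replicate 2 (47.5 to 135), and rank 1861 of 4375. This was 1.26 times the density of the median coding gene, 62.3, whereas the other 8 members lay between 7.10 and 39.1 times that median. Dpysl2 exceeded Dpysl4 by 16.4-fold and 18.7-fold. Of the summed CRMP density, Dpysl2 made up 41.5% ± 3.37, Dpysl3 24.9% ± 3.04, Crmp1 18.0% ± 0.480, Dpysl5 13.3% ± 0.788 and Dpysl4 2.36% ± 0.029 (each SD, n = 2).

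**Figure D1:**
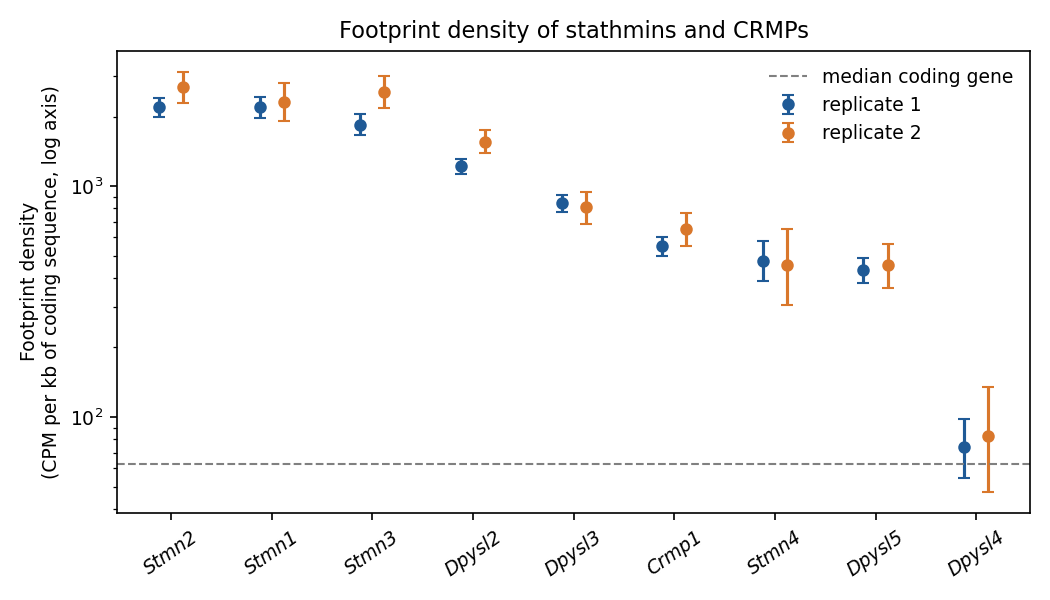
Footprint density of the 9 genes in CPM per kb of coding sequence on a log axis, with 1 point per replicate and bars for the exact Poisson 95% interval of the count. Stmn2, Stmn1 and Stmn3 overlap at the top, Dpysl2 and Dpysl3 follow, and Dpysl4 lies near the dashed line, the median of 4375 coding genes at 62.3.

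In the order Stmn2, Stmn1, Stmn3, Dpysl2, Dpysl3, Crmp1, Stmn4, Dpysl5, Dpysl4, 3 of the 8 steps were beyond the spread, with replicate values and Poisson intervals apart in both libraries. These were the steps from Stmn3 to Dpysl2 (1.59-fold in the means), from Dpysl2 to Dpysl3 (1.68-fold) and from Dpysl5 to Dpysl4 (5.63-fold). Dpysl3 and Crmp1 were apart in replicate 1, but their intervals overlapped in replicate 2. The steps from Crmp1 to Stmn4 and from Stmn4 to Dpysl5 were not resolved.

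The choice of length bears on part of this order. Per whole transcript length instead of coding length, Dpysl3 made up 37.7% ± 3.81 of the CRMP total and Dpysl2 29.4% ± 3.01 (SD, n = 2), the opposite order, since the Dpysl3 transcript used has 44 nucleotides of 3' untranslated region and that of Dpysl2 has 2481. The reversal depends on the Dpysl3 isoform used. The one with 3353 nucleotides of 3' untranslated region had 90.3 and 29.0 counts per kb of transcript, below the 171 and 66.4 of Dpysl2. Per transcript length Stmn2, with 1281 nucleotides of 3' untranslated region, went from 33.1% to 21.6% of the stathmin total, below Stmn1 at 35.9% and Stmn3 at 35.6%. Stmn4 and Dpysl4 were the lowest of their families by coding length, by transcript length and by counts.

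**Figure D2:**
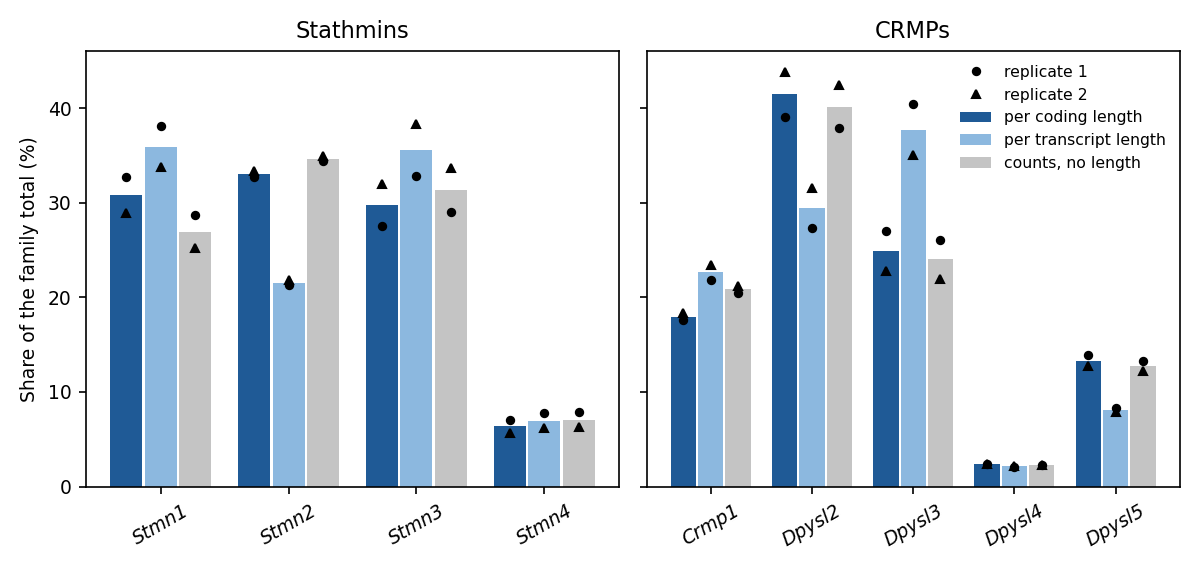
Share of each gene in its family total in percent, as bars for the mean of the replicates and points for each replicate, computed per coding length, per transcript length and from counts without length. Stmn4 and Dpysl4 are lowest in all 3 versions, while Dpysl2 and Dpysl3 exchange places per transcript length.

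The replicates were compared to see how closely these levels repeat between the libraries. On TMM-scaled CPM, Stmn1 stood at 989 and 1045, Stmn2 at 1187 and 1447, Stmn3 at 1003 and 1393, and Stmn4 at 271 and 259 in replicates 1 and 2. Crmp1 stood at 1130 and 1339 CPM, Dpysl2 at 2092 and 2679, Dpysl3 at 1442 and 1384, Dpysl5 at 732 and 768, and Dpysl4, on its transcript with the highest count, at 144 and 134. On this scale 6 genes were higher and 3 lower in replicate 2, with ratios between 0.933-fold for Dpysl4 and 1.39-fold for Stmn3. The direction for Dpysl4 rests on a retained-intron transcript with 53 and 15 counts; on its coding transcript, with 47 and 16, the density was 74.1 in replicate 1 and 83.1 in replicate 2, the opposite order.

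Of the 9 members 2 were called, both higher in replicate 2, by a 2-sided exact binomial test with Benjamini-Hochberg adjustment over all genes tested (adjusted p under 0.05). The background is 4.14% of the 5436 genes tested in either direction, 3.99% higher in replicate 2, and 0.956% of the 4392 coding genes among them. The test compares the reads of these libraries and not conditions, and members with more counts had more chance to be called. Stmn3 was 1.39-fold higher in replicate 2 (exact 95% interval 1.14 to 1.68, log2 ratio 0.47, adjusted exact binomial p = 0.0218). Dpysl2 was 1.28-fold higher (1.12 to 1.47, log2 ratio 0.36, adjusted exact binomial p = 0.0102). Stmn2 came next at 1.22-fold (1.01 to 1.46, exact binomial p = 0.0335, adjusted p = 0.408), so 3 members had an unadjusted p under 0.05, which 9.6% of all genes tested and 5.62% of the coding genes among them also had.

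Neither call held with edgeR's exact test at a preset biological coefficient of variation of 0.2, which called 2.41% of all genes. By that test the adjusted p was 1 for Stmn3 and for Dpysl2, and no member had an unadjusted p under 0.05. The coefficient was chosen and not estimated from these libraries. The loss of the calls therefore rests on the chosen value and does not measure the spread between animals. With library totals in place of TMM the adjusted exact binomial p was 0.486 for Stmn3 and 0.648 for Dpysl2.

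The intervals of the remaining 6 members included a ratio of 1. For Dpysl3 the ratio was 0.960 (exact 95% interval 0.798 to 1.15), for Stmn1 1.06 (0.850 to 1.30), for Dpysl5 1.05 (0.814 to 1.34) and for Crmp1 1.19 (0.977 to 1.43). The low counts of Stmn4 (0.956, 0.609 to 1.46) and Dpysl4 (0.933, 0.488 to 1.68) gave the widest intervals, so differences within them were not detectable at this depth. The median log2 ratio of the 9 members was 0.079, against 0.0041 for all genes tested and -0.016 for the coding genes.

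**Figure D3:**
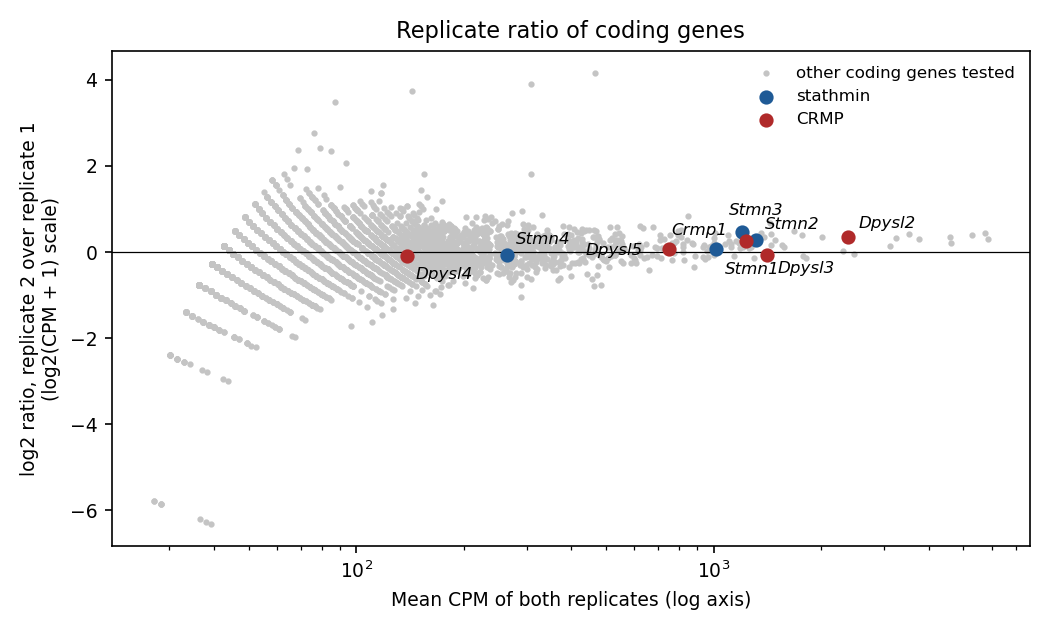
The log2 ratio between the libraries (positive where replicate 2 is higher, from log2(CPM + 1)) against mean CPM on a log axis, for the coding genes tested (grey), stathmins (blue) and CRMPs (red). The members lie between -0.10 for Dpysl4 and 0.47 for Stmn3; Dpysl4, at a mean of 139 CPM, sits where the grey cloud is still wide.

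The table lists 49 transcripts of the 9 genes, of which 29 have a coding sequence, 14 are retained introns and 6 are processed transcripts. Isoform counts overlap, since a fragment that matches several isoforms appears to be counted for each, and they cannot be added: for Stmn4 the sum over 9 isoforms was 5.51 times the highest count in replicate 1. A difference between isoforms of a gene is a net number of fragments, those in sequence held by the first minus those in sequence held by the second. Stmn3 and Dpysl2 have a single isoform in the table, so no such difference exists for them.

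Crmp1 has a long isoform with 686 residues (coding sequence of 2061 nucleotides) and a short one with 572 (1719 nucleotides). The long isoform had 417 and 150 counts, and the short one 400 and 139. The long isoform thus held a net 17 and 11 more fragments. Its 342 further coding nucleotides would hold 79.6 and 27.7 fragments at the density of the short isoform, while the untranslated regions also differ, with 65 nucleotides at the 5' end and 925 at the 3' end in the long isoform and 294 and 893 in the short one. RefSeq lists starts for Crmp1 at 2 positions 3706 nucleotides apart on chromosome 5, plus strand. The 250 bases before each start are shown, in GRCm38.p6, to set the starts beside each other; no value here links either isoform to a start. CpG dinucleotides are in capitals.
Crmp1 upstream start, chr5:37241808-37242057: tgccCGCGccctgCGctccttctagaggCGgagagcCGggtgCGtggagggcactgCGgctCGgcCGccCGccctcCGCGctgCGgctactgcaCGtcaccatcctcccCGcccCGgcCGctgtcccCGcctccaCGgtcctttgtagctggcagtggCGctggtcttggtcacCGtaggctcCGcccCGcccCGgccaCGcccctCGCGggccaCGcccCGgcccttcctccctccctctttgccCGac
Crmp1 downstream start, chr5:37245514-37245763: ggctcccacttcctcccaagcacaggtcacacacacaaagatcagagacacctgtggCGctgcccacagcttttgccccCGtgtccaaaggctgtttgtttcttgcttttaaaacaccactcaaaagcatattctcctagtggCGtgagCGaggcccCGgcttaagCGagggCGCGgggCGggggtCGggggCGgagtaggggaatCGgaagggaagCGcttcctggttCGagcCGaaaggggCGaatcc

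The window at the upstream start holds 30 CpG dinucleotides and 75.6% G and C, and that at the downstream start 16 and 59.6%. The median over 32851 RefSeq windows of the same length is 6 CpG dinucleotides and 52.4%. The letters TATAAA, on either strand, are in neither window, and in 12.4% of all windows. Of the 9 members, 3 had an entry in the promoter table.

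Dpysl3 has a corresponding pair of 683 and 570 residues, and there the balance differed in sign between the libraries. The long isoform has 339 further coding nucleotides and 3309 more of 3' untranslated region. Its 5' untranslated region is shorter, with 79 nucleotides against 349. The long isoform had 495 and 159 counts, against 532 and 155 for the short one: 37 fewer in replicate 1 and 4 more in replicate 2. The further coding sequence would hold 105 and 30.7 fragments at the density of the short isoform. Another isoform, of 568 residues, has 174 nucleotides of 5' and 105 of 3' untranslated region where the short one has 349 and 44. It had 470 and 141 counts, or 62 and 14 fewer than the short one. Dpysl4 isoforms of 593 and 572 residues had 51 and 12 counts against 47 and 16, differences too small to order.

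For Stmn4, 4 isoforms of 189, 176, 216 and 203 residues differ by stretches of 39 and 81 coding nucleotides. The cleanest contrast is the pair of 203 and 176 residues, whose untranslated regions match to 1 nucleotide in length. The isoform with 81 further coding nucleotides had 86 and 23 counts, which is 5 and 3 fewer than the 91 and 26 of the shorter one, where 13.9 and 3.97 more would be held at its density. The other pair that differs by 81 nucleotides, of 216 and 189 residues, gave 88 and 23 counts against 100 and 29. The 216-residue transcript is the shorter of that pair as a whole, with 1281 nucleotides against 1303. The pairs that differ by 39 coding nucleotides did not go this way: the isoform of 189 residues had 100 and 29 counts against 91 and 26 for that of 176, and that of 216 residues 88 and 23 against 86 and 23 for that of 203. All these counts are small.

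In the Stmn1 and Dpysl5 pairs that shared the exact coding length and differed in untranslated regions, counts were close. A Stmn1 isoform with 450 coding nucleotides, 421 of 5' and 96 of 3' untranslated region had 365 and 117 counts. Its counterpart of equal coding length, with 170 and 440 nucleotides, had 358 and 118. The Dpysl5 isoforms of 564 residues had 270 and 86 counts, against 259 and 86 with 163 nucleotides less of 5' untranslated region. Pairs that differed by 6 coding nucleotides were not all as close. The Dpysl3 isoforms of 570 and 568 residues had 532 and 155 counts against 470 and 141. The Stmn1 isoform of 147 residues had 339 and 119 counts, against the 358 and 118 above. One partial Stmn1 isoform, with 308 coding nucleotides and no listed 3' untranslated region, spans a length equal to 68.4% of the full coding sequence. It held 66.8% (Wilson 95% interval, 61.9 to 71.5) and 62.4% (53.4 to 70.6) of the full count in replicates 1 and 2, both intervals including its share of the length.

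Among other partial isoforms, the share of counts varied in how near it came to the share of length. Of Stmn4, one of 27.5% of the coding length held 39.0% (30.02 to 48.8) and 24.1% (12.2 to 42.1) of the count, and one of 42.6% held 37.0% (28.2 to 46.8) and 6.90% (1.91 to 22.0). Of Dpysl3, a partial isoform of 37.8% of the coding length held 29.1% (25.4 to 33.1) and 32.3% (25.4 to 40.0) of the count, and one of 18.2% held 12.4% (9.87 to 15.5) and 16.8% (11.7 to 23.4). Of Crmp1, one of 27.8% of the length held 14.4% (11.3 to 18.1) and 19.3% (13.8 to 26.4), and one of 22.9% held 24.0% (20.1 to 28.3) and 25.3% (19.0 to 32.8). The first Crmp1 share was below the share of length in both libraries, by intervals that did not reach it. For the second, both intervals included the share of length. Another Crmp1 partial isoform, of 20.9% of the length, held 19.4% (15.9 to 23.5) and 13.3% (8.80 to 19.7). Its interval lay below the share of length in replicate 2 alone. A Dpysl4 partial isoform of 27.3% held 23.4% (13.6 to 37.2) and 43.8% (23.1 to 66.8), from 11 and 7 counts. Where these isoforms lie in the gene was not determined, and some of their sequence may be absent from the full isoform.

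Transcripts listed without a coding sequence also carried counts. The Stmn2 retained intron of 3413 nucleotides had 237 and 89 counts, 54.1% and 54.9% of the coding isoform, and the Dpysl5 retained intron of 1243 nucleotides had 110 and 27, or 40.7% and 31.4%. For Dpysl4 a retained intron had the highest count of the gene, 53 and 15, beside 47 and 16 on the coding transcript. These transcripts contain exons of the coding isoforms, so the counts do not show ribosomes on intron sequence. In Stmn4, singled out after its values were seen, a retained intron of 405 nucleotides had 34 counts in replicate 1 and 1 in replicate 2, and a partial coding isoform 37 and 2, whereas the full isoform had 100 and 29.

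**Figure D4:**
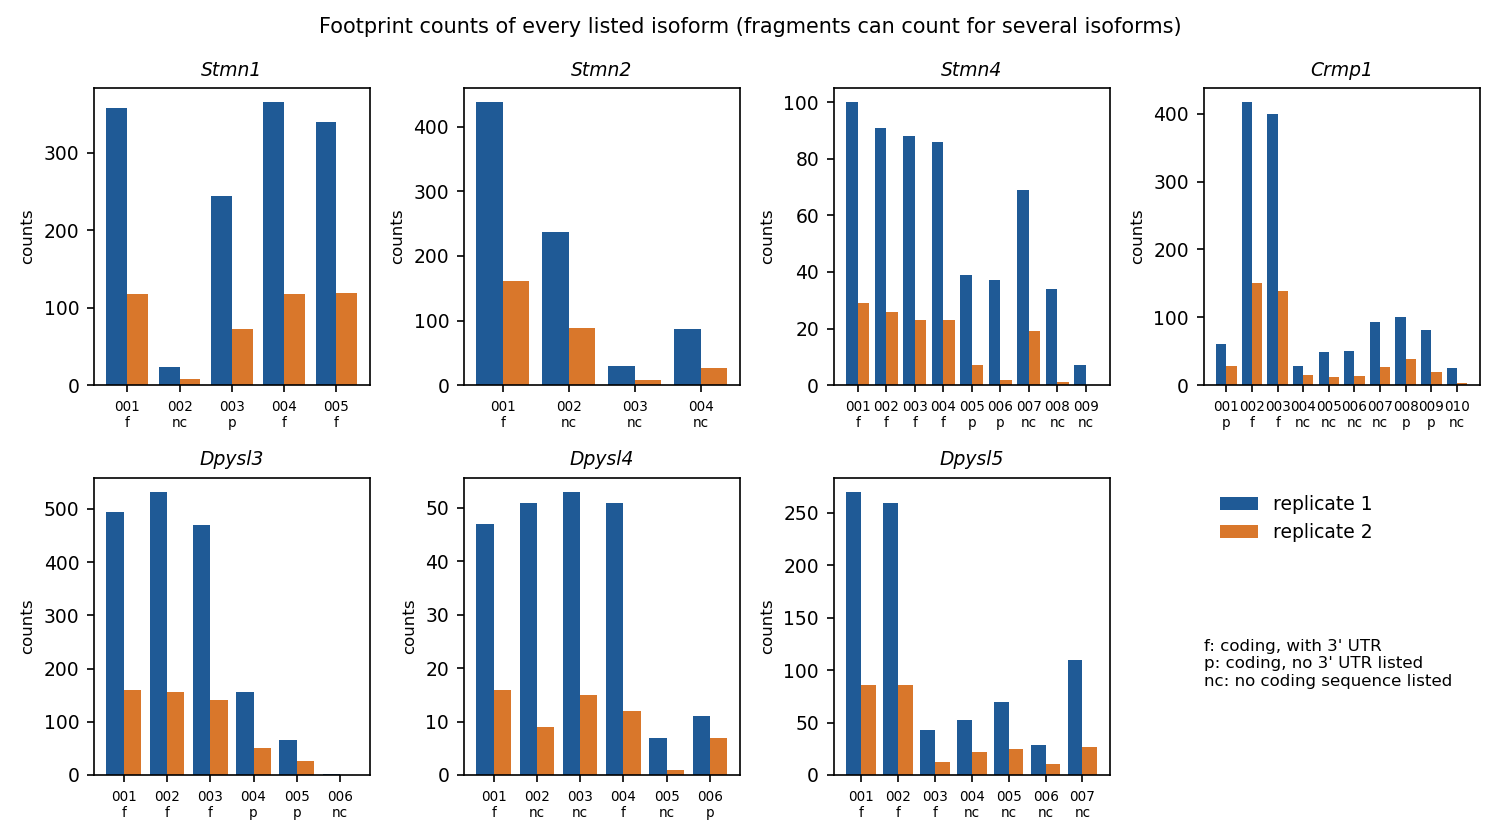
Counts of every listed isoform of the 7 genes with several isoforms, as paired bars for replicate 1 and replicate 2, with the isoform's number and kind under each pair. The Crmp1 isoforms 002 and 003 are nearly level, with 417 and 400 counts in replicate 1, whereas Dpysl5 003, a short coding isoform with a 3' untranslated region, has 43 counts beside the 270 of Dpysl5 001.

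Genes that act with these families were set beside them from lists of the semaphorin 3A pathway, of CRMP kinases and partners and of stathmin kinases, 37 genes in all. Of these, 29 passed the count filter and 0 were called by the exact binomial test in either direction: 0 of 9, 0 of 11 and 0 of 10 in the lists, of which Cdk5 is in more than 1. The share called was 4.14% over all genes tested and 0.956% over coding genes, so a count of 0 among so few genes is near the background. At an unadjusted p under 0.05 the lists held 1, 0 and 1 genes, beside 9.6% of all genes and 5.62% of coding genes, and edgeR's exact test with the preset coefficient of variation called 0 and gave 0 under an unadjusted 0.05. The median log2 ratios of the lists were -0.016, 0.014 and 0.23, against 0.0041 for all genes tested.

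Their footprint densities were mostly below those of the members. Median densities were 30.4 CPM per kb for the semaphorin list, 50.4 for the CRMP kinases and partners and 66.9 for the stathmin kinases. By mean density 1 of the 37 genes, the small GTPase Rac1 (458 ± 138, SD, n = 2), exceeded the 442 ± 15.1 of Dpysl5. The order was not the same in both libraries: Rac1 was below Dpysl5 in replicate 1 (360 against 432) and above it in replicate 2 (555 against 453). Rac1 was singled out after its values were seen. The semaphorin co-receptor component L1cam had a density of 116 ± 13.1 and the receptor Plxna1 53.8 ± 3.92. The kinesin light chain Klc1, which binds the Dpysl2 protein, had 293 ± 2.07, and Cdk5r1, the p35 activator of Cdk5, 361 ± 4.31. Among the stathmin kinases, the calcium-dependent kinase Camk4 had 168 ± 12.6 (each SD, n = 2). The neuronal tubulin Tubb3 had a density of 2125 in replicate 1 and 2673 in replicate 2, beside 2198 and 2679 for Stmn2. Tubb3 was itself called higher in replicate 2 (log2 ratio 0.33, adjusted exact binomial p = 0.00365), as were Stmn3 and Dpysl2, and was not called with the preset coefficient of variation. Its part in those calls was not tested, and its value is uncertain if fragments of similar tubulins were counted for each of them. Of the 6 neuronal markers Tubb3 alone was called, and the median log2 ratio of that list was 0.0027. Map2 had a log2 ratio of 0.015, Snap25 0.044, Syt1 -0.0096, Nefl -0.24 and Rbfox3 -0.85. The enzyme Dpys, from which the CRMPs take the name of dihydropyrimidinase-like proteins, and the stathmin-domain gene Stmnd1 had 0 counts in both libraries, which allows a share of up to 0.00087% in replicate 1 and 0.0025% in replicate 2 for each.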

How the data were processed

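The labels give 1 group in duplicate, control mouse brain at postnatal day 5. The authors deposited 1 table of whole-number counts of ribosome-protected fragments per transcript, not normalised, for 109463 transcripts, with region lengths. Trimmomatic 0.36, Bowtie2 2.2.6, SAMtools and build GRCm38.p4 are named, per the submitters' processing notes, without roles; the counting tool is not given in the sources used here. The file holds 0 count columns of other samples. Count columns were matched by replicate number, and the word early in their names is not in the labels.

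The isoform with the most counts stood for a gene, the longer one in a tie; densities used the top isoform with a coding sequence, since that of Dpysl4 has none. Protein lengths are coding length without the stop. edgeR 4.0.16 gave TMM factors of 1.07 and 0.931 over the 5436 genes averaging at least 10 counts, so 1 count was worth 2.71 and 8.93 CPM. Ratios are on log2(CPM + 1). The exact binomial test (SciPy 1.17.1) and its threshold of 0.05 ran over all genes. Its p-values take in counting error alone and not the spread between libraries. The test was also run on simulated Poisson counts. These had no added spread between libraries, so that check cannot show how the test behaves where such spread exists. All members are named, as are the 2 highest genes by mean CPM of each pathway list and any gene called. Some items named by this rule are not reported here. Promoter sequences are from RefSeq, GRCm38.p6. The members and lists were chosen with earlier results of these data known. No transcript or protein sequences were used here. Alternatives covered scaling (DESeq2 1.42.0 size factors), filters, the isoform used, length and single replicates.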

Additional observations from a re-analysis of the deposited data

How the results depend on the processing

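No paired analysis was possible because a single group was profiled. The alternatives for the stathmin to CRMP density ratio and for single log2 ratios were chosen after seeing the data. The 2 members called became 0 with library totals, 0 without the count filter, 0 with the preset coefficient of variation and 1 among protein-coding genes alone, where Stmn3 lost its call (adjusted exact binomial p = 0.0857); the adjusted p over the alternatives ran from 0.0186 to 1 for Stmn3 and from 0.00886 to 1 for Dpysl2. Library totals lower the median log2 ratio of all genes from 0.0041 to -0.20. The 225 genes called overall became 75 when genes had to average at least 50 counts, 131 with the preset coefficient of variation and 22 among coding genes alone. Log2 ratios of Stmn1 and Dpysl5 changed sign with library totals (-0.13 and -0.14) and without the filter (-0.096 and -0.11), Dpysl5 also at the stricter count minimum (-0.0041), and Dpysl3 on the longest coding isoform (0.086), so these directions, and that of Dpysl4 between its transcripts, are not settled.

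The stathmin share of 0.378% became 0.432% with isoforms summed and 0.492% of coding counts, and the CRMP share of 0.591% became 0.689%, 0.767% and, on the longest coding isoforms, 0.600%. Single replicates gave 0.371% to 0.386% and 0.587% to 0.595% of all gene counts. Of coding counts they gave 0.455% and 0.528% for stathmins, and 0.731% and 0.803% for CRMPs, in replicates 1 and 2. The density ratio of 2.21 became 1.65 per transcript length and 2.28 on the longest coding isoforms, with single replicates from 2.16 to 2.26. Totals of coding counts are smaller by construction; for the other changes the cause was not tested. Depth limits Dpysl4 and Stmn4 most, with 68 and 129 counts in sum.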
